A study of Mus musculus with 21 samples.

Results

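The 10 serotonin receptor genes Htr1a, Htr1b, Htr1d, Htr2a, Htr2c, Htr3a, Htr4, Htr5a, Htr6 and Htr7 were followed in whole-brain RNA, as 10 of the 16318 genes in the deposited table. They were chosen by name, and each had a single row and passed the filter on low counts. The brains came from 21 mice of the senescence-accelerated strain SAMP8, aged 6 months when dosing ended. For 8 weeks, 9 mice (3 female, 6 male; the treated mice) had subcutaneous injections of HsTX1[R14A], a peptide that blocks the potassium channel Kv1.3, at a dose of 1 mg/kg on alternate days, and 12 mice (6 female, 6 male) had phosphate-buffered saline (PBS). All groups share the SAMP8 background, and no mouse of a non-senescent strain was among these libraries. Each library came from 1 mouse, and total counts ranged from 14917171 to 36207536 in PBS mice and from 17552394 to 47613770 in treated mice.

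Serotonin is made by a small set of neurons in the raphe nuclei of the brainstem, whose fibers reach most of the brain, and its receptors are spread over many cell types. Htr1a, Htr1b, Htr1d and Htr5a encode receptors that couple to Gi/o proteins and lower cyclic AMP. Htr2a and Htr2c encode receptors that couple to Gq proteins and activate phospholipase C, Htr4, Htr6 and Htr7 encode receptors that couple to Gs proteins and raise cyclic AMP, and Htr3a encodes a subunit of a cation channel opened by serotonin. In a whole brain, fewer cells of a type and less RNA per cell cannot be told apart.

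The libraries differed in features whose values are given beside the receptor results. The first is the slope of log2 CPM (a gene's counts scaled by the library's total) on log2 transcript length, whose mean was -0.0764 ± 0.161 for PBS (SD, n = 12) and 0.102 ± 0.119 for treated mice (SD, n = 9), and which was lowest in PBS mice 103 (-0.384) and 90 (-0.337). The second is the form of the library name in the table (SAMP8 or SAMP), held by 10 and 2 of the PBS mice and by 5 and 4 of the treated mice; the sources used here do not say what it marks. The third is the makeup of the tissue. Summed CPM of 5 raphe markers was 52.0 in treated mouse 71 and 27.6 in treated mouse 88, with a highest value of 16.04 among PBS mice. Of these 5, Ddc and Slc18a2 reached 25.1 and 18.6 CPM in treated mice, and Tph2 2.79 CPM. Ddc also serves the making of dopamine, so these sums do not single out raphe neurons. Summed CPM of 10 cerebellum markers was 1055 in treated mouse 74, with a highest value of 535 among PBS mice. Mouse 71 also had the lowest sum of 9 markers of striatal projection neurons (441, PBS mice 744 to 1662). Markers of neurons, astrocytes and oligodendrocytes were present in every library, as a brain sample would have them.

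The 3 receptor genes that passed the test of treatment, Htr1b, Htr2a and Htr6, are shown by the stretch of genome before their start sites (RefSeq, GRCm38.p6, coding strand, 5′ to 3′), since these stretches precede the transcripts whose levels are compared here. Capitals mark the GC box, GGGCGG on either strand.
Htr1b, chr9:81633833-81634082, minus strand: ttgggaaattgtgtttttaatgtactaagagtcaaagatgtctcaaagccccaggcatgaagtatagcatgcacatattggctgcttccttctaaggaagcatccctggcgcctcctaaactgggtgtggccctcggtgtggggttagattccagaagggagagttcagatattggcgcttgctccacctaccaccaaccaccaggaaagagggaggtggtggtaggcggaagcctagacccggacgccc
Htr2a, chr14:74640624-74640839, plus strand: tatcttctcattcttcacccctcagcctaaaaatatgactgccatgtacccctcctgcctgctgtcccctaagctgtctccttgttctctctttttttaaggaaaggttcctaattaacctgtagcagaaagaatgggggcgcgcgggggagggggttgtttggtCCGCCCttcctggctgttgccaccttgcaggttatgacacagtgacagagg
Htr6, chr4:139075571-139075820, minus strand: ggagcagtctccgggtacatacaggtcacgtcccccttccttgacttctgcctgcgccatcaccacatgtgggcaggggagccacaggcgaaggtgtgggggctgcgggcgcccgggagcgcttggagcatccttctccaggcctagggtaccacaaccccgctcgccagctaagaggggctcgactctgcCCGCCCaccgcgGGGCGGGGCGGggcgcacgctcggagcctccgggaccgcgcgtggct

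The 3 stretches differed in base composition and in the GC box. In the full 300-base RefSeq windows, from 250 bases before to 50 bases after the start, GC content was 53.3% for Htr1b, 52% for Htr2a and 71% for Htr6, with a median of 52.7% over 32851 promoters. The GC box occurred 0 times for Htr1b, 1 time for Htr2a and 3 times for the first of the RefSeq starts of Htr6, where 2 of the 3 overlap, and 35.7% of all promoters held at least 1. The letters TATAAA (13.6% of all promoters, both strands) were in none of these 3 windows, and CCAAT (37.4%) occurred 2 times for Htr1b and not for Htr2a or Htr6. These matches are descriptions of the letters and were not tied to any value below. RefSeq promoters were matched for 8 of the 10 genes, and Htr3a and Htr4 had none.

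Levels were compared between genes as counts per kilobase of the longest transcript, scaled to the same total in every library. Htr2c, abundant in choroid plexus and many neurons, was the highest at 28.6 ± 9.44 (SD, n = 21) and made up 37.0% ± 6.37 of the sum of the 10 receptor genes. Divided by the union of its exons instead, Htr2c stood at 17.7 ± 6.11 and made up 23.99% ± 5.04 of the sum, beside 14.1 ± 5.13 for Htr1b, a gap smaller than the SD and seen in 17 of 21 mice. Htr1b, the release-limiting receptor of many nerve terminals, followed at 11.9 ± 4.17. Htr1a, the autoreceptor of raphe neurons and a receptor of hippocampal and cortical neurons, stood at 8.11 ± 2.40. Htr7 (7.62 ± 2.49), Htr5a (6.86 ± 1.99) and Htr2a (5.45 ± 2.38) came next. The lowest per-length levels were those of Htr6 (2.83 ± 1.35), Htr3a (2.36 ± 0.895), Htr1d (2.34 ± 0.934) and Htr4 (1.20 ± 0.473). Of the 9 pairs of neighbors in this order, 3 had means that differed by more than the larger of their SDs, of which the last 2 below also did so with the union of exons: Htr2c was above Htr1b and Htr2a above Htr6 in 21 of 21 mice, and Htr1d above Htr4 in 20 of 21. Htr3a was above Htr1d in 10 of 21 mice, so their order is not set by these data.

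**Figure D1:**
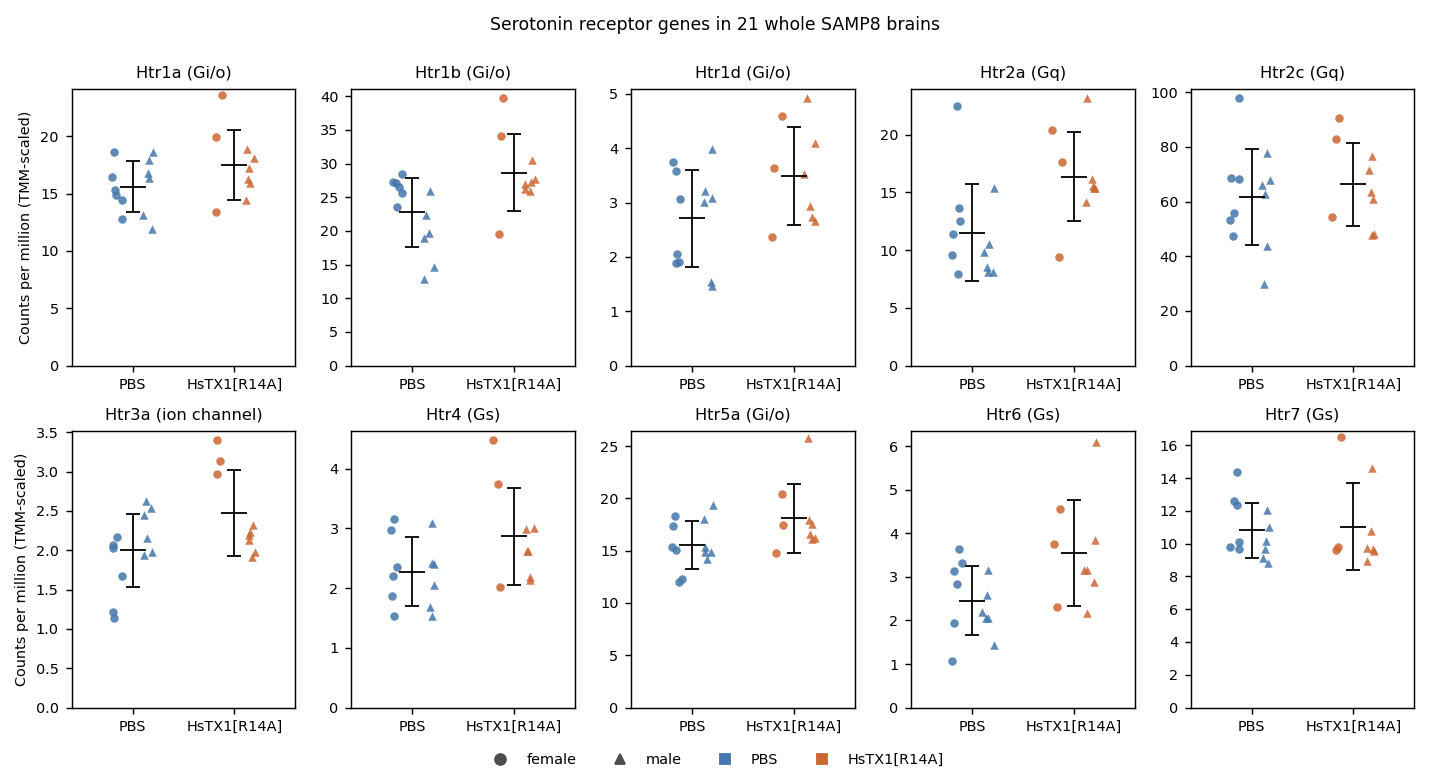
TMM-scaled CPM (y axis, from 0, each gene on its own scale) of the 10 receptor genes in PBS and treated mice (x axis); circles are females, triangles males, and bars give the mean ± SD of 12 and 9 mice. The groups overlap for every gene, and the means of Htr1b, Htr2a and Htr6 stand at 28.7, 16.4 and 3.55 CPM in treated mice beside 22.8, 11.5 and 2.45 CPM in PBS mice.

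The main comparison asks whether the receptor genes differed in RNA level between HsTX1[R14A] and PBS mice. Htr1b, Htr2a and Htr6 were higher in treated mice, and the other 7 did not pass the test (edgeR quasi-likelihood test with sex in the model, p-values adjusted over 16303 genes by Benjamini and Hochberg's method, threshold 0.05). Of all genes tested, 31.6% passed, and 15.5% passed with a higher level in treated mice. The 3 of 10 is near the first share, but all 3 were higher, so the second is the share in the same direction. Whether 3 of 10 differs from either share was not tested. The fitted log2 fold change was above 0 for 10 of 10 receptor genes, with a median of 0.33, and the median over all genes was -0.013. The medians are given as a description, and the 10 genes were measured in the same mice. With the length slope as a covariate the median of the 10 was 0.16, with 9 of 10 above 0. In the SAMP name form alone it was 0.077, with 6 of 10 above 0. With the length and GC trend of each library removed it was 0.36, with 10 of 10 above 0.

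Htr1b rose with HsTX1[R14A]. It spans chr9:81628291-81633828 on the minus strand of GRCm38, and its annotation overlaps the antisense gene D430036J16Rik. The labels and the study's methods name different library kits, so it is not settled that strand was used in counting, and reads of this antisense gene cannot be told apart from those of Htr1b here. CPM in PBS mice ran from 12.9 through a median of 24.6 to 28.5, and in treated mice from 19.5 through 27.3 to 39.8. The groups overlapped, with 8 of 9 treated mice above the PBS median and 3 above every PBS mouse. The log2 fold change was 0.41 (SE 0.12, 95% confidence interval 0.16 to 0.66, edgeR adjusted p = 0.0225). PBS males 101 (12.9 CPM) and 82 (14.7 CPM) were the lowest of the 21 mice, and treated female 72 the highest.

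Htr2a, the cortical receptor through which hallucinogens act, rose with HsTX1[R14A] too. It lies at chr14:74640840-74709494 on the plus strand. CPM in PBS mice ran from 7.95 through a median of 10.2 to 22.5, and in treated mice from 9.42 through 15.6 to 23.2. The groups overlapped at both ends: 8 of 9 treated mice exceeded the PBS median, but only 1 was above PBS female 104, the highest of its group. The log2 fold change was 0.55 (SE 0.18, 95% confidence interval 0.17 to 0.92, edgeR adjusted p = 0.0298). The 9 markers of cortical and hippocampal excitatory neurons, summed, ran from 334 to 1243 CPM in PBS mice and from 866 to 1657 CPM in treated mice. None of the 9 passed the test (edgeR, 1 at an unadjusted p under 0.05), and their part in the Htr2a difference was not tested.

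Htr6, a receptor found mostly in striatum and cortex, also rose, with the adjusted p nearest to the threshold among the 3. Its call was lost with limma/voom (adjusted p = 0.0552), with quality weights (0.0516) and with the length and GC trend removed (0.106), where Htr1b and Htr2a kept theirs, and with no sex term (edgeR adjusted p = 0.0645), where Htr1b lost its call too (0.0766). It lies at chr4:139061108-139075570 on the minus strand. Its counts were low, from 15 to 185 per library, where counting alone gives a coefficient of variation of 11.2% at the mean count. CPM in PBS mice ran from 1.06 through a median of 2.40 to 3.64, and in treated mice from 2.17 through 3.16 to 6.11. Of the 9 treated mice, 7 were above the PBS median and 4 above every PBS mouse. The log2 fold change was 0.55 (SE 0.21, 95% confidence interval 0.12 to 0.98, edgeR adjusted p = 0.0475).

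Htr6 tracked the length slope of its library. Its longest transcript has 2341 bases, where those of the 10 genes run from 2082 (Htr3a) to 5606 (Htr2a), and its GC content of 63.1% is the highest of the 10. What ties Htr6 to the slope was not tested. In the 12 PBS mice, log2 CPM of Htr6 and the length slope correlated with Pearson's r = 0.949 (permutation p = 1e-05, the smallest that 100000 resamples give, adjusted p = 0.0001 over the 10 genes) and Spearman's rho = 0.881 (permutation p = 0.0004, adjusted p = 0.004). Leaving out the 2 mice with the most extreme slopes gave r = 0.861, and in the 10 PBS mice of the SAMP8 name form it was 0.952. None of the other 9 receptor genes passed this test, and the values nearest to it were those of Htr2a (r = 0.584, permutation p = 0.0459, adjusted p = 0.166) and Htr5a (r = 0.576, permutation p = 0.0497, adjusted p = 0.166). With the length slope as a covariate, the log2 fold change of Htr6 was -0.039, that of Htr2a 0.28 and that of Htr1b 0.39, and no gene of the 16303 passed. The log2 fold changes of these 3 genes with the length and GC trend of each library removed were 0.35, 0.57 and 0.39, and Htr2a and Htr1b passed.

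**Figure D2:**
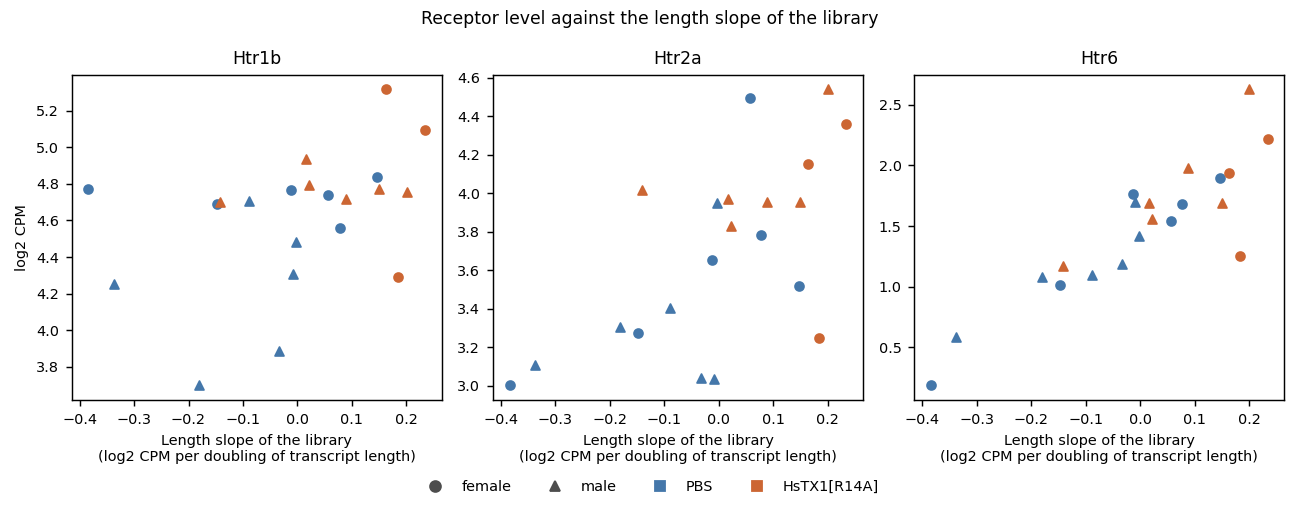
log2 CPM (y axis) of Htr1b, Htr2a and Htr6 against the length slope of the library (x axis, log2 CPM per doubling of transcript length) in 21 mice; circles are females, triangles males, blue PBS and orange HsTX1[R14A]. In the PBS mice r was 0.949 for Htr6 and 0.215 for Htr1b (0.861 and 0.507 without the 2 farthest mice); the difference between them was not tested.

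The Gi/o-coupled receptor genes Htr1a and Htr5a did not pass the test of treatment. Htr1a (chr13:105443639-105448122, plus strand) ran from 11.9 through a median of 15.9 to 18.7 CPM in PBS mice and from 13.4 through 17.2 to 23.5 CPM in treated mice, and its log2 fold change was 0.17 (95% confidence interval -0.039 to 0.38, edgeR adjusted p = 0.184). Its highest mouse was 71, the library with the highest raphe markers, and without that mouse the log2 fold change was 0.086. Leaving out the highest treated mouse lowers the fold change in any case, and the part of raphe tissue was not tested. Htr5a (chr5:27842149-27855088, plus strand) ran from 11.99 through 15.2 to 19.3 CPM and from 14.8 through 17.5 to 25.8 CPM, with 8 of 9 treated mice above the PBS median and a log2 fold change of 0.20 (95% confidence interval -0.0089 to 0.41, edgeR adjusted p = 0.122). Htr1a and Htr5a were also the steadiest of the 10, with biological coefficients of variation of 16.4% and 15.9%.

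Htr1d (chr4:136423524-136444398, plus strand), a terminal autoreceptor like Htr1b, ran from 1.46 through 3.04 to 3.99 CPM in PBS mice and from 2.36 through 3.52 to 4.92 CPM in treated mice. Its log2 fold change of 0.36 was close to that of Htr1b, but its spread was wider (95% confidence interval -0.042 to 0.76, edgeR adjusted p = 0.146). The lowest mice were again PBS males 101 and 82.

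Htr2c, the most abundant of the 10, lies on chromosome X (146962513-147197277, plus strand) and showed no detectable treatment difference. CPM ran from 29.97 through 64.5 to 97.9 in PBS mice and from 47.6 through 63.5 to 90.6 in treated mice, and only 4 of 9 treated mice exceeded the PBS median. The log2 fold change was 0.14, with a 95% confidence interval from -0.19 to 0.47 (edgeR adjusted p = 0.506), an interval that holds the 0.41 of Htr1b. Choroid plexus, which is rich in Htr2c, varied widely between libraries: its 10 markers summed to 288 to 1550 CPM in PBS mice and to 191 to 1264 CPM in treated mice, and 0 of 10 passed the test (edgeR, 1 at an unadjusted p under 0.05). The part of choroid plexus in the Htr2c values was not tested.

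Among the Gs-coupled receptors other than Htr6, Htr4 (chr18:62324204-62496577, plus strand) ran from 1.53 through 2.28 to 3.16 CPM in PBS mice and from 2.01 through 2.63 to 4.49 CPM in treated mice. Its log2 fold change was 0.37 (95% confidence interval 0.037 to 0.70, edgeR adjusted p = 0.0777), and it passed only when PBS male 82 was left out (0.44, adjusted p = 0.0391). Htr7 (chr19:35958734-36057507, minus strand), a receptor of thalamus and hypothalamus, ran from 8.81 through 10.1 to 14.4 CPM and from 8.95 through 9.73 to 16.5 CPM. For Htr7, 3 of 9 treated mice exceeded the PBS median. Its log2 fold change was 0.062 (95% confidence interval -0.17 to 0.30, edgeR adjusted p = 0.684) and turned to -0.049 without mouse 71 and to -0.013 without mouse 88, the 2 mice with the highest Htr7 and the highest raphe markers of all 21. Summed thalamus markers were 590 CPM in mouse 71 and 534 CPM in mouse 88, above the 186 to 460 CPM of the PBS mice. Leaving out either of the highest treated mice lowers the fold change in any case, and the part of raphe or thalamus tissue was not tested.

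**Figure D3:**
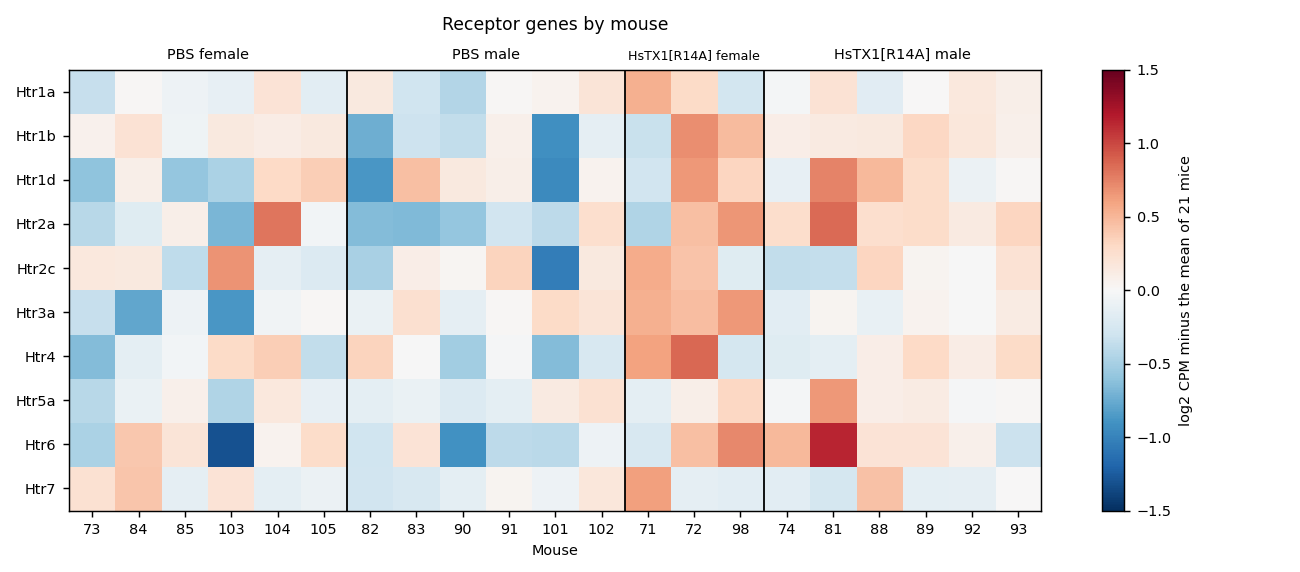
log2 CPM of each receptor gene (rows) in each mouse (columns, by group), shown as the difference from the mean of 21 mice (color scale). Mouse 81 is high for Htr2a, Htr5a and Htr6, mouse 71 for Htr1a and Htr7, and PBS male 101 is low for Htr1b, Htr1d and Htr2c.

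Htr3a (chr9:48899213-48911099, minus strand), the ion channel subunit that marks a class of cortical interneurons, is given by sex. In females, CPM ran from 1.14 through a median of 1.85 to 2.16 in the 6 PBS mice, and the 3 treated mice were at 2.97, 3.13 and 3.41. The female groups did not overlap, and the share of all genes of which this holds was not counted. In males, CPM ran from 1.94 through 2.30 to 2.63 in PBS mice and from 1.91 through 2.16 to 2.33 in treated mice, which lay within the PBS range or just under it. The fitted log2 fold change was 0.87 in females (SE 0.23, edgeR adjusted p = 0.244) and -0.10 in males (SE 0.13, edgeR adjusted p = 0.598). The interaction, the female minus the male log2 fold change, was 0.98 (SE 0.23, 95% confidence interval 0.49 to 1.47). It ranked 1 of 16303 genes by p, but failed the correction for that number of tests (edgeR adjusted p = 0.99996). Leaving out each mouse in turn gave interactions from 0.89 to 1.06. Without regard to sex in the treatment term, the log2 fold change was 0.30 (edgeR adjusted p = 0.121). The counts behind these values were low, 16 to 146 per library, and the female HsTX1[R14A] group held 3 mice.

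No receptor gene passed the test of an interaction of treatment with sex, where 0% of all genes passed (edgeR, 0 of 16303 genes, 270 at an unadjusted p under 0.05, and 0 by limma/voom and by DESeq2). The same held within females (0% of 16209 genes, 3312 at an unadjusted p under 0.05) and within males (0% of 16102 genes, 4440 at an unadjusted p under 0.05). In males, Htr2a (log2 fold change 0.72, SE 0.17, edgeR adjusted p = 0.138), Htr6 (0.66, SE 0.24, adjusted p = 0.140) and Htr1b (0.52, SE 0.14, adjusted p = 0.138) had larger fitted values than in females (0.29, 0.39 and 0.23). For each of the 3, 6 of 6 male treated mice were above the male PBS median. The same held for Htr5a, which did not pass the test of treatment, and the share over all genes was not counted. That count adds no support, since the test that picked the 3 genes included these males. The interaction of these 3 genes was -0.43, -0.27 and -0.28, each with a 95% confidence interval that spans 0.

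**Figure D4:**
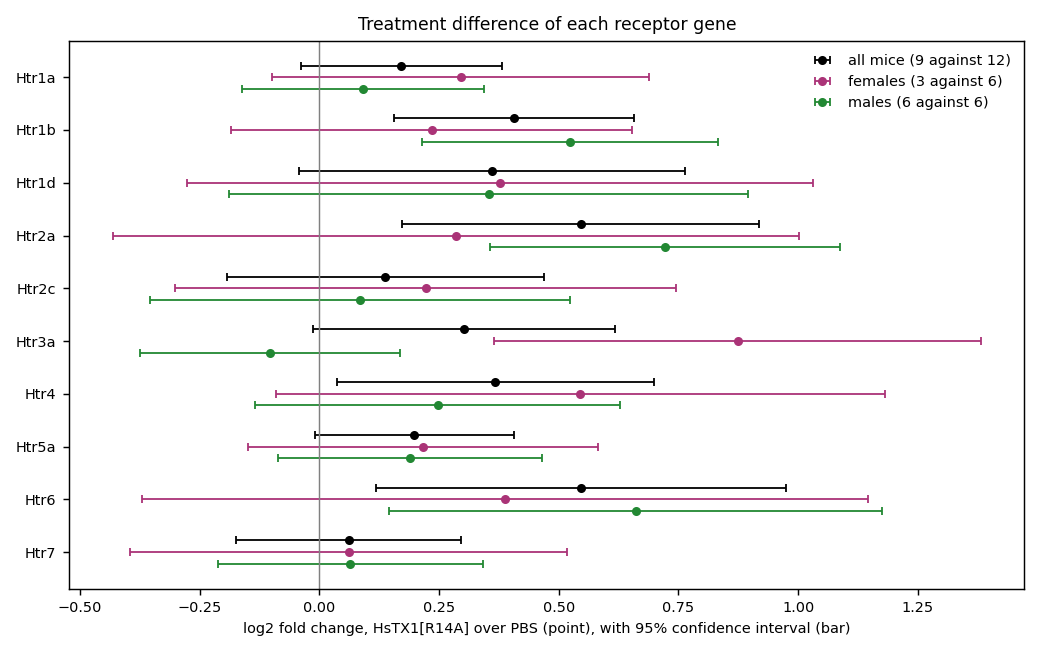
log2 fold change (treated over PBS) (x axis, point) with its 95% confidence interval (bar) for each receptor gene (y axis), in all mice, in females and in males. The female and male intervals of Htr3a do not overlap (0.37 to 1.38 and -0.37 to 0.17), and those of the other 9 genes do. The interaction of Htr3a did not pass the test (edgeR adjusted p = 0.99996).

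Between females and males, no receptor gene passed, and 0.0552% of all genes did (9 of 16303). The value nearest to it was that of Htr1b, with a mean of 28.004 ± 5.89 CPM in 9 females and 23.3 ± 5.53 CPM in 12 males and a log2 fold change of 0.35 (SE 0.12, edgeR adjusted p = 0.446). In the PBS mice alone the 6 females had 23.5 to 28.5 CPM and the 6 males 12.9 to 25.99 CPM.

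The calls of Htr1b, Htr2a and Htr6 turned on the library name form and on single mice. With the name form as a covariate, 0 of 10 receptor genes and 1999 of 16303 genes passed, with log2 fold changes of 0.37 for Htr1b, 0.42 for Htr2a and 0.45 for Htr6. Within the SAMP8 form (10 PBS and 5 treated mice) the same genes had 0.37, 0.58 and 0.37, and within the SAMP form (2 PBS and 4 treated mice) 0.35, 0.062 and 0.66, where again 0 of 10 passed, as did 0 of all 16305 and 16170 genes tested in these fits (edgeR, 5797 and 532 at an unadjusted p under 0.05), so these counts are not particular to the receptor genes. The mean of Htr2a in the 2 PBS mice of the SAMP form, 18.9 CPM, was above the 18.3 CPM of the 4 treated mice of that form, while in the SAMP8 form the means were 10.03 and 14.8 CPM. The edgeR adjusted p of Htr1b was above 0.05 without mouse 72 (0.0511), and that of Htr2a without mouse 90 (0.0613), 98 (0.0634) or 81 (0.0581). Htr6 kept its call in 10 of the 21 fits that left out 1 mouse, with log2 fold changes from 0.42 to 0.64. Without treated mice 71, 74 and 88, those with the highest raphe or cerebellum markers, the log2 fold changes were 0.51, 0.68 and 0.64, each larger than with them, and 0 of 10 receptor genes passed (lowest adjusted p = 0.114, 0 of 16304 genes called). All of these mice have the SAMP8 name form, so leaving them out also made the name forms more uneven between treatments. Tissue makeup and name form cannot be told apart in this fit.

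**Figure D5:**
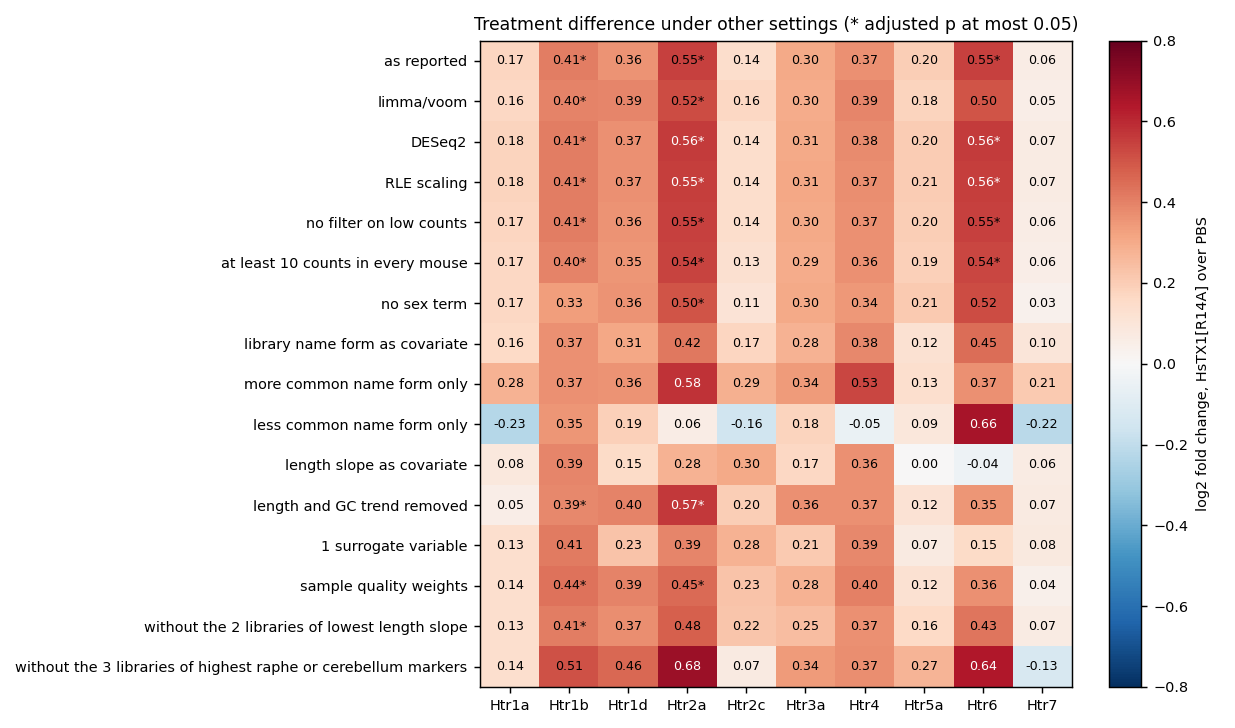
log2 fold change (treated over PBS) (number and color) for each receptor gene (columns) as reported and under each other setting (rows); an asterisk marks an adjusted p of at most 0.05. Htr1b stays between 0.33 and 0.51, and Htr6 runs from -0.039 to 0.66.

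The receptor genes did not move as a block from mouse to mouse. Over the 45 pairs, correlations of log2 CPM after removal of sex and treatment ran from -0.522 to 0.805 with a median of 0.0806 (n = 21 mice, permutation p adjusted over 45 pairs). Htr2a and Htr5a went together (r = 0.805, adjusted permutation p = 0.00135; rho = 0.769, adjusted p = 0.00585; r = 0.833 without the 2 farthest mice). So did Htr5a and Htr6 (r = 0.727, adjusted permutation p = 0.00405; rho = 0.735, adjusted p = 0.00608; 0.657 without the 2 farthest). Htr1b and Htr1d (r = 0.647, adjusted permutation p = 0.0078; rho = 0.481, adjusted p = 0.110) and Htr2a and Htr6 (r = 0.605, adjusted permutation p = 0.0449; rho = 0.556, adjusted p = 0.0899) passed by r alone, and Htr2c and Htr7 by rho alone (0.643, adjusted permutation p = 0.033; r = 0.542, adjusted p = 0.0893). These mice also differ in length slope and in tissue makeup, whose part in the correlations was not tested.

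The genes most like each receptor gene over the 21 mice, by Pearson's r after removal of sex and treatment among 14228 genes, were 30 different genes. For Htr1b they were Rarb, Pde1b and Serpina9 (r = 0.919, 0.917 and 0.909), for Htr2c Rps6ka6, Zcchc12 and Glra2 (0.944, 0.937 and 0.930), and for Htr6 Npas2, Mapk4 and Kif17 (0.958, 0.956 and 0.948). For Htr2a they included Ptp4a3 and Camk4 (0.858 and 0.852), and for Htr5a they were Gpr158, Syt1 and Pknox2 (0.910, 0.909 and 0.906). For Htr7 they were B630019K06Rik, Ddc, which encodes the enzyme that makes serotonin and dopamine from their precursors, and Tekt2 (0.870, 0.852 and 0.849). For Htr1d they were Scube3, Six3 and Slc18a3 (0.860, 0.836 and 0.827), for Htr4 Myo5b, Mycl and Npy2r (0.814, 0.801 and 0.757) and for Htr1a Ak5, Sertm1 and Kcng2 (0.785, 0.771 and 0.745). The likeness was weakest for Htr3a, with Tmem136, Trafd1 and Cacna2d1 (0.711, 0.673 and 0.672).

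Of the other serotonin receptor genes, Htr5b and Htr1f were tested and neither passed. Htr2b and Htr3b are not named among the 16318 genes and could not be tested. Htr5b had a log2 fold change of 0.64 (SE 0.34, edgeR adjusted p = 0.140) at 0.956 ± 0.712 CPM in PBS mice and 1.36 ± 0.725 CPM in treated mice. Htr1f had 0.10 (SE 0.15, edgeR adjusted p = 0.627). Of 8 tested genes of serotonin synthesis, transport and breakdown, 0 passed (edgeR, 2 at an unadjusted p under 0.05). Maoa, the oxidase that breaks serotonin down, was nearest, at 40.8 ± 8.28 CPM in PBS mice and 33.5 ± 4.71 CPM in treated mice (log2 fold change -0.29, SE 0.11, edgeR adjusted p = 0.0531). With the length slope as a covariate, the log2 fold change of Maoa was -0.015 (edgeR adjusted p = 0.965). Tph2, the rate-limiting enzyme of neuronal serotonin synthesis, was low, from 0.313 to 1.10 CPM in PBS mice and from 0.194 to 2.79 CPM in treated mice (0.23, SE 0.38, edgeR adjusted p = 0.657), and without mouse 71 its log2 fold change was -0.51. Slc18a2, the vesicular monoamine transporter, had 0.86 (SE 0.51, edgeR adjusted p = 0.185), and -0.91 without mice 71, 74 and 88. Slc6a4 is not named among these genes either.

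On the signaling side of the receptors, each list held genes that passed, in shares below the 31.6% of all genes that passed. Of all genes, 15.5% passed with a higher level in treated mice. Of 13 genes on the Gi/o side, 2 rose and 0 fell: Kcnj6, a potassium channel opened by Gi/o-coupled receptors (log2 fold change 0.82, SE 0.26, edgeR adjusted p = 0.0263), and Gnao1, the alpha subunit of Go (0.38, SE 0.13, adjusted p = 0.0343). With the length slope as a covariate their log2 fold changes were 0.0092 and 0.0056, and that of Gnao1 turned to -0.047 with the length and GC trend removed. Of 14 genes on the Gs side, 3 rose and 1 fell. Adcy3, an adenylyl cyclase, rose from 27.5 ± 9.16 to 42.8 ± 8.997 CPM (0.69, SE 0.16, edgeR adjusted p = 0.0161), and Rapgef4, a target of cyclic AMP also known as Epac2, fell from 1012 ± 286 to 626 ± 159 CPM (-0.77, SE 0.16, edgeR adjusted p = 0.0151). Of 13 genes on the Gq side, 2 rose and 0 fell, among them Prkca, a protein kinase C (log2 fold change 0.43, SE 0.15, edgeR adjusted p = 0.0339). Of 14 partners and regulators of the receptors, 3 rose and 1 fell, led by Adar, an enzyme that edits RNAs including that of Htr2c (0.61, SE 0.15, edgeR adjusted p = 0.0163), and Mpdz, a scaffold that binds the Htr2c receptor (0.51, SE 0.13, adjusted p = 0.0165). The medians of the 4 lists were 0.14, 0.12, 0.27 and 0.13, and with the length slope as a covariate, where 0 of 16303 genes passed (edgeR, 1865 at an unadjusted p under 0.05), the log2 fold changes were 0.20 for Adcy3, -0.55 for Rapgef4, 0.015 for Prkca, 0.14 for Adar and 0.13 for Mpdz.

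Some markers of other cell types passed as well, and their part in the receptor values was not tested. Of all 16303 genes, 31.6% passed and 2618 passed with a lower level in treated mice. Of 8 oligodendrocyte markers 4 fell and 0 rose, of 7 astrocyte markers 3 fell, of 7 microglia markers 2 fell, and of 8 general neuron markers 1 rose. Summed CPM of the oligodendrocyte markers was 4396 to 6728 in PBS mice and 3315 to 4907 in treated mice, and that of the neuron markers 5387 to 7790 and 5812 to 8409. The astrocyte markers summed to a median of 4254 CPM in PBS mice and 4373 CPM in treated mice. Of 12 markers of interneurons, the cells in which Htr3a is best known, 1 rose and 1 fell, and their sum was 1266 to 1690 CPM in PBS mice and 1366 to 1818 CPM in treated mice. Striatal (9), thalamus (8) and red blood cell (5) markers gave 0 calls (edgeR, 0 at an unadjusted p under 0.05). Of the raphe (5), cerebellum (10) and endothelium (7) markers, 1 each rose.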

How the data were processed

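RNA from whole brains of 21 SAMP8 mice (12 PBS, 9 HsTX1[R14A]) was sequenced, 1 library per mouse. Per the labels and the study's methods, the authors used STAR and Salmon on GRCm38, and their deposited table gives estimated counts per gene (16318 genes), not normalized; versions are not given in the sources used here. The labels name a SMARTER kit and the methods an MGI directional kit. The table also holds the authors' log2 fold changes and p-values of HsTX1[R14A] over PBS, which were not used, nor were 53 per-sample columns (37 of CPM, and 16 of counts from libraries not analysed here).

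Estimated counts were rounded (90.5% lay within 0.01 of a whole number). After filterByExpr, 16303 genes remained; TMM scaling and the quasi-likelihood test of edgeR 4.0.16 (R 4.3.3) followed, with a model of sex plus treatment, with Benjamini-Hochberg adjustment and a threshold of 0.05. The members and lists were chosen with earlier results of these data known. Named genes were the 10 receptors, the other receptor genes, Tph2, Slc6a4, Slc18a2 and Maoa, the 2 genes of smallest p in each other pathway list, and the 3 most alike to each receptor. Some genes that this rule names are not reported here. The table's Adrbk1 was read as Grk2. Library totals were 14917171 to 47613770 counts, so counting error is small beside the spread between mice except for Htr1d, Htr3a, Htr4 and Htr6. No 2 of 48 same-group pairs of libraries agreed within sampling noise (mean chi-square per gene 7.58 to 288). Lengths came from GENCODE M21 (99.5% of genes), and promoters from RefSeq GRCm38.p6. log2 CPM carries a prior count of 2. Permutations were two-sided with 100000 resamples. The procedure was tested on simulated data with planted changes larger than those of the receptor genes. The simulation had no length slope, name form or tissue difference, so it does not bear on the calls reported here. Alternatives were limma/voom 3.58.1, DESeq2 1.42.0, RLE scaling, other filters, no sex term, the name form, the length slope, a loess trend (span 0.5) on length and GC content, 1 surrogate variable (sva 3.50.0), quality weights and each mouse left out; 2 sets of libraries were left out after the data were seen.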

Additional observations from a re-analysis of the deposited data

Results flagged for a closer look

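Each receptor gene was tested in each group of 6 mice for a mouse far from the others of its treatment and sex. Of these 30 tests, 5 flagged a mouse. Chance flags about 1 in 20 single tests, but these tests share the same mice and the genes are not independent. The 5 of 30 are therefore not set against that rate. HsTX1[R14A] male 81 stood above its group for Htr2a (23.2 CPM, the other 5 at 14.1 to 16.1) and for Htr5a (25.8 CPM, the others at 16.1 to 17.9). Its Htr6, at 6.11 CPM, was the highest of the 21 mice. PBS male 102 stood above its group for Htr2a (15.4 CPM, the others at 8.13 to 10.5), and its library has the SAMP name form, as has that of mouse 81. HsTX1[R14A] male 88 stood above its group for Htr7 (14.6 CPM, the others at 8.95 to 10.8), and its raphe markers were the second highest of all mice at 27.6 CPM. HsTX1[R14A] male 89 stood above its group for Htr1b (30.5 CPM, the others at 25.9 to 27.6), in a group whose Htr1b values were otherwise close together.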

How the results depend on the processing

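The count of receptor genes called for treatment was 3 as reported. It was 1 with no sex term (2984 of all genes called, 5144 as reported) and without the 2 libraries of lowest length slope (2887), and 0 with the name form as covariate (1999) and with 1 surrogate variable (1104). It was also 0 in either name form alone, with the length slope as covariate and without the 3 libraries of highest raphe or cerebellum markers, where 0 of all genes were called; leaving out each mouse in turn gave 1 to 3, with 1 without mouse 90, 98, 72 or 81. With each mouse left out, 2289 to 6614 of all genes were called. limma/voom, the length and GC trend removed and quality weights gave 2, each without Htr6. The cause was not tested. In the less common name form alone, log2 fold changes turned to -0.23 for Htr1a, -0.16 for Htr2c, -0.054 for Htr4, -0.22 for Htr7, -0.089 for Tph2 and -0.64 for Slc18a2. Htr6 turned to -0.039 with the length slope as covariate. Leaving out each mouse in turn, Htr7 ran from -0.049 (without mouse 71) to 0.10, and was -0.013 without mouse 88; it turned to -0.13 without the 3 libraries of highest raphe or cerebellum markers, where Tph2 turned to -0.37 and Slc18a2 to -0.91. Tph2 also turned to -0.14 with limma/voom, -0.16 with quality weights, and ran from -0.51 (without mouse 71) to 0.38 with each mouse left out. Htr1f turned to -0.11 in the more common name form and -0.026 with quality weights, and ran from -0.012 (without mouse 98) to 0.21 with each mouse left out. Gnao1 turned to -0.047 with the length and GC trend removed. No interaction or sex call was made for a receptor gene under any alternative run; by DESeq2 the Htr3a interaction had an adjusted p of 0.284. Scaled by the union of exons, the per-length level of Htr2c was 17.7 in place of 28.6, 23.99% of the sum in place of 37.0%, still first with a gap to Htr1b within the SD, and the order of the 10 means was kept. Without removal of sex and treatment, 13 of the 30 most alike genes were shared.

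Mice carried numbers of their own, and no number is shared between groups, so mice could not be paired by number. The study's methods state that treatment was randomized within each cage. The labels do not give the cage of each mouse, so cage was not in the model. Depth limits Htr1d, Htr3a, Htr4 and Htr6, whose counts fell to 27, 16, 22 and 15 at the lowest. The length slope differs between treatments, and the 2 cannot be fully told apart.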
